A study of Homo sapiens with 9 samples.

Results

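Collagens and laminins are the main structural proteins of the extracellular matrix. Their genes were taken as every gene whose symbol is that of a single collagen chain or a single laminin alpha, beta or gamma chain, and 47 of the 14207 genes measured met this rule, 38 of them collagens and 9 laminins. They divided into 10 fibrillar collagen chains, 15 basement membrane chains (6 of type IV collagen and the 9 laminins) and 22 other collagen chains. RefSeq lists 56 such genes. Of the rest, COL7A1, COL18A1, COL27A1 and LAMB3 were read only by probe sets that also name another gene, and 5 were not analysed here.

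Each collagen molecule is a triple helix of 3 chains that are hydroxylated, folded and glycosylated in the endoplasmic reticulum before secretion. Fibrillar collagens are trimmed outside the cell and assemble into cross-linked fibrils, whereas type IV collagen and the laminins form sheet-like networks that make up basement membranes. The retinal pigment epithelium rests on such a basement membrane, which is the innermost layer of Bruch's membrane, and helps to maintain it.

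The cells were ARPE-19, a spontaneously arising line of human retinal pigment epithelial cells, grown to confluence in serum and then moved to medium with albumin. Total RNA was hybridised to whole-transcript arrays in 3 groups of 3 arrays: vehicle control, 100 µg/ml and 250 µg/ml of a commercial cigarette smoke condensate prepared from research cigarettes and dissolved in dimethyl sulfoxide. The labels state neither how long the cells were exposed nor whether arrays of a group came from separate cultures, so every p-value measures only the spread between arrays. Values are log2 intensities, and a change is the mean of a treated group minus the mean of vehicle on that scale.

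Array medians lay between 4.42 and 4.59. Of the retinal pigment epithelial markers, KRT8 lay between 10.29 and 11.49 and OTX2 between 8.38 and 9.28, above the upper quartile of every array. RPE65, the retinoid isomerase that defines the mature epithelium, lay between 2.33 and 2.69, below the lower quartile of every array. In each group 4 of the 11 markers measured lay above the upper quartile on all its arrays. Below the lower quartile lay 3 in vehicle, 3 at 100 µg/ml and 4 at 250 µg/ml. The summed log2 values of the 11 markers measured lay in the ranges 62.2 to 66.5 (vehicle), 58.1 to 61.1 (100 µg/ml) and 57.7 to 61.3 (250 µg/ml), and the part of that difference in the matrix results was not tested. Fibroblast markers gave sums of 20.7 to 22.1 (vehicle), 19.5 to 21.3 (100 µg/ml) and 19.2 to 20.4 (250 µg/ml). They differed in brightness. THY1 lay between 2.5 and 2.64 throughout, whereas PDGFRB read 8.30, 8.41 and 6.88 in vehicle, above the upper quartile of each vehicle array. PDGFRB read 6.17, 6.18 and 8.23 at 100 µg/ml and 6.24, 6.57 and 7.81 at 250 µg/ml. At both doses only array 3 lay above its upper quartile. FAP read 4.78, 5.28 and 5.86 in vehicle. In RNA from a whole culture, fewer cells of a kind and less RNA per cell cannot be told apart.

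Of the 47 chains, 8 were bright throughout. COL4A1, COL4A2, LAMA4, LAMB1, LAMB2 and LAMC1 lay above the upper quartile of all genes on all 9 arrays, as did the fibrillar chain COL11A1 and the fibril-associated chain COL12A1. In all, 14 of the 47 chains had a mean over the arrays above the median of the gene means, 4.65: 9 of the 15 basement membrane chains, 2 of the 10 fibrillar chains and 3 of the 22 other chains. A further 29 chains lay below the array median on every array. Brightness also depends on each probe set's own affinity, so it does not rank the chains by abundance.

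The basement membrane genes of type IV collagen sit head to head in 3 pairs. The start regions of COL4A1 with COL4A2 and of COL4A3 with COL4A4 are shown, because their windows overlap and the members of each pair are read beside one another in the results. COL8A2 is added as the chain with the second smallest p-value at 250 µg/ml, after COL4A4. Each run is 5′ to 3′ on the gene's own strand in GRCh38.p14 (RefSeq), from 250 bases before the transcription start to 50 after it. Capitals mark the GC box GGGCGG, the CCAAT box CCAAT and the TATA box TATAAA on either strand.
COL4A1, chr13:110307108-110307407, minus strand: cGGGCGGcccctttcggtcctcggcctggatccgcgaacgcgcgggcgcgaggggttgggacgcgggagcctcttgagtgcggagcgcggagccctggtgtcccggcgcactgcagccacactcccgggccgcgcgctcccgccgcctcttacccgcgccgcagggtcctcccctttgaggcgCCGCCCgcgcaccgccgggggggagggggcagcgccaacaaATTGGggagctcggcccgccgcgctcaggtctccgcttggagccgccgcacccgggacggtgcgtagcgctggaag
COL4A2, chr13:110307034-110307333, plus strand: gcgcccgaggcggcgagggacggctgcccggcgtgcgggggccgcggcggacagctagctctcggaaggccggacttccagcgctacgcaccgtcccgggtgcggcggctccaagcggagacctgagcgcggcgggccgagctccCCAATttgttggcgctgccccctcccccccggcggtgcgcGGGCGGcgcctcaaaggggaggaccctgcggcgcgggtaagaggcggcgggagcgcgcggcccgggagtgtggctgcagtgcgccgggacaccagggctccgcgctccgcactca
COL4A3, chr2:227164374-227164673, plus strand: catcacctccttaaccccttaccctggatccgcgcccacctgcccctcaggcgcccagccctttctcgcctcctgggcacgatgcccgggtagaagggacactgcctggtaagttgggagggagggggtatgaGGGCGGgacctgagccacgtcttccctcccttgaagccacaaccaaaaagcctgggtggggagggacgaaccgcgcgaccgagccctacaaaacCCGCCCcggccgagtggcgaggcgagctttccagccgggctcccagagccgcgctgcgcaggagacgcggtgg
COL4A4, chr2:227164156-227164455, minus strand: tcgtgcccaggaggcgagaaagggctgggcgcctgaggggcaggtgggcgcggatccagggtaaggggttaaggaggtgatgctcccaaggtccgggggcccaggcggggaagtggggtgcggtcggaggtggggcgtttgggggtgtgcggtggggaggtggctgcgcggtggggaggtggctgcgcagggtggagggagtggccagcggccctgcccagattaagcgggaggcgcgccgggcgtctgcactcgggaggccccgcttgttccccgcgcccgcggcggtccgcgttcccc
COL8A2, chr1:36125173-36125472, minus strand: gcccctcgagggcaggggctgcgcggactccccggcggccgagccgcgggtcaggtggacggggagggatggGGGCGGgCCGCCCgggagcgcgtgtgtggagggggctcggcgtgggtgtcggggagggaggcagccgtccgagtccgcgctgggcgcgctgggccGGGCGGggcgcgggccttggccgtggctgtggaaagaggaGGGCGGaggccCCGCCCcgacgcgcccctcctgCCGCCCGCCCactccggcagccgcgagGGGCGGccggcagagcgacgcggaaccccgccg
The starts of COL4A1 and COL4A2 lie 127 bases apart, so their windows share 226 bases read on opposite strands. The starts of COL4A3 and COL4A4 lie 419 bases apart and their windows share 82 bases, while those of COL4A5 and COL4A6 lie 1416 bases apart and their windows share none. The COL8A2 window holds 8 GC boxes, COL4A1 and COL4A3 hold 2 each, COL4A2 holds 1, and none of the marked letters occur in the COL4A4 window.

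Promoter windows were found for 33 of the 47 chains. A GC box was present in 19 of them (57.6%), against 45.0% of the whole set of 35116 windows, and a CCAAT box in 30.3%, against 34.6%. The letters TATAAA occurred in 9.09%, against 11.5%. The core recognised by the aryl hydrocarbon receptor, GCGTG, occurred in 39.4%, against 36.5%, and the SMAD element CAGAC in 45.5%, against 45.3%. The antioxidant response element core TGACNNNGC occurred in COL21A1 and COL4A5 (6.06%), against 13.3%, and the AP-1 site TGANTCA in 0 of 33, against 7.71%. Both strands were searched, the last 2 patterns can overlap, and a match is a match of letters only.

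No collagen or laminin gene passed the test at either dose. At 100 µg/ml, 0 of 47 had a limma adjusted p under 0.05, where 0.0633% of all genes (9) passed, and COL8A2 alone had an unadjusted p under 0.05, with lower values in treated cells, where 7.65% of all genes were lower at that level. At 250 µg/ml, 0 of 47 passed, against 0.549% of all genes (78), and 9 had an unadjusted p under 0.05, all lower, against 7.90% of all genes. For the mean of both doses against vehicle, 0 of 47 passed, against 0.901% of all genes (128), and 6 had an unadjusted p under 0.05, all lower, against 10.6% of all genes.

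The direction was nearly the same for all chains at 250 µg/ml. The change was below 0 for 46 of 47 chains, the exception being COL4A5, while it was below 0 for 57.3% of all genes. The median change was −0.19 over the 47 chains and −0.04 over all genes. It was −0.20 for the fibrillar chains, −0.26 for the basement membrane chains and −0.15 for the other chains, and within the basement membrane group −0.62 for type IV collagen and −0.22 for the laminins. At 100 µg/ml the change was below 0 for 39 of 47 chains, where it was for 59.2% of all genes, and the median was −0.11, against −0.05 over all genes. For the mean of both doses it was below 0 for 42 of 47 chains, where it was for 58.7% of all genes. Both comparisons use the same 3 vehicle arrays.

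All 3 values at 250 µg/ml lay under all 3 vehicle values for 19 of 47 chains, and for 14.3% of all genes; no chain had the opposite pattern, which 8.61% of all genes had. The 19 were 3 fibrillar, 7 basement membrane and 9 other chains. With each array centred on its median the count was 14 (15.1% of all genes), after quantile normalization it was 13 (9.89%), without vehicle array 2 it was 20 (18.6%), and without the first array at 250 µg/ml it was 33 (21.9%). At 100 µg/ml, only COL8A2 and COL13A1, a transmembrane collagen, had all treated values under all vehicle values, where 11.9% of all genes had, although without the first array at that dose the count was 22 (24.6%). No chain had all values at 100 µg/ml above all vehicle values, a pattern of 6.41% of all genes.

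**Figure D1:**
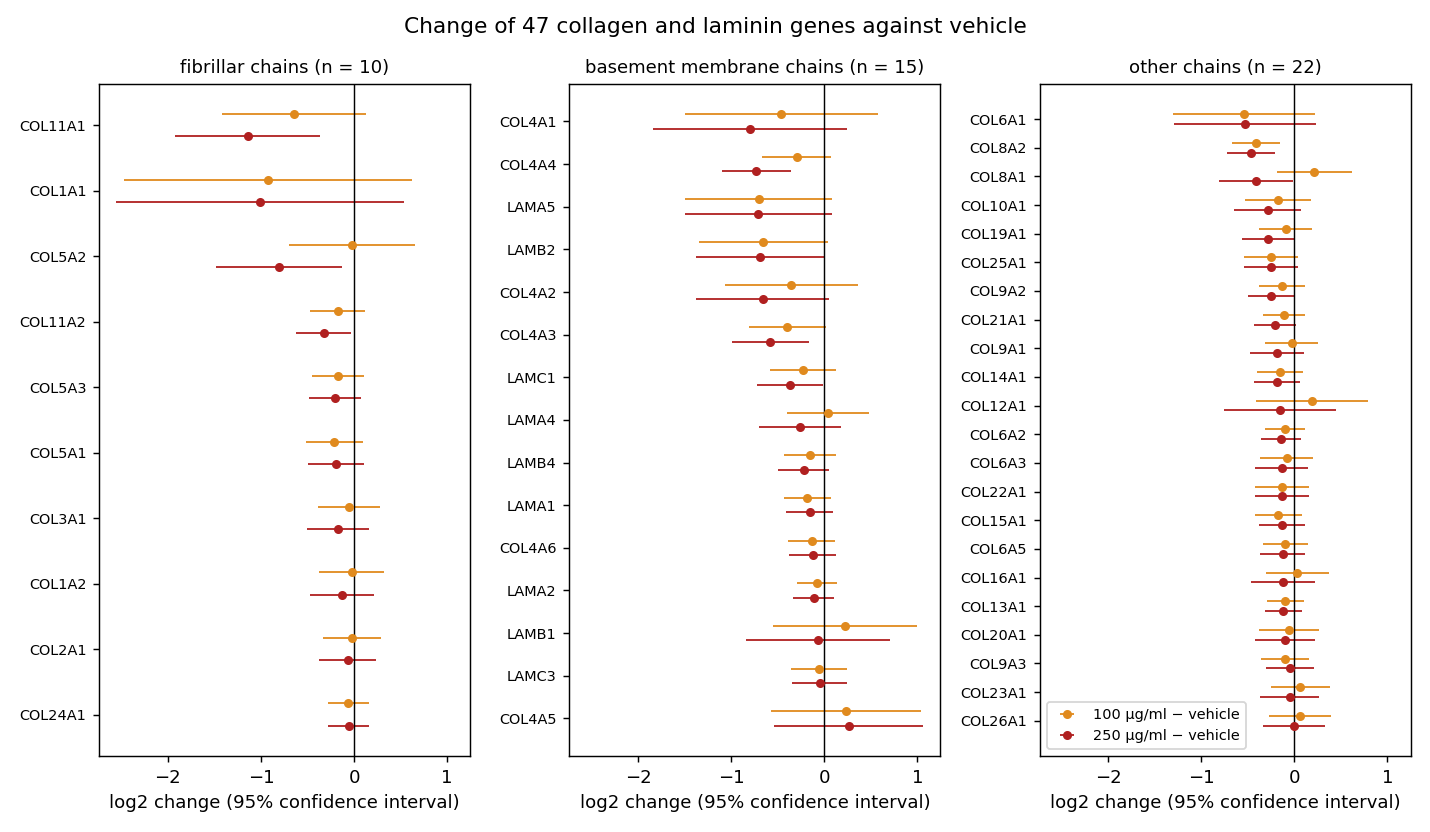
Log2 change from vehicle of the 47 chains at 100 µg/ml (orange) and 250 µg/ml (red), as points with confidence intervals from the limma fit, in panels of 10 fibrillar, 15 basement membrane and 22 other chains. At 250 µg/ml every point but that of COL4A5 lies below 0, and the longest intervals are those of COL1A1 and COL4A1.

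At 250 µg/ml the size of the change of the chains went with the brightness of the probe set. The 14 bright chains had a median change of −0.59 at 250 µg/ml and 13 of them were below 0, whereas the 7103 bright genes of the array had a median of 0.09 and 40.2% were below 0. The 33 dim chains had a median of −0.15 and all were below 0, but 74.3% of the 7104 dim genes were below 0 too, with a median of −0.09. Among bright genes 7.19% lay wholly under vehicle at 250 µg/ml, and of the 14 bright chains 5 did. Among dim genes 21.4% did, and of the 33 dim chains 14 did. At 100 µg/ml the bright chains had a median change of −0.26, with 9 of 14 below 0. The dim chains had −0.10, with 30 of 33 below 0. Bright genes had 0.05 at that dose (43.8% below 0) and dim genes −0.09 (74.6%). The larger fall of the bright chains at 100 µg/ml was not kept without vehicle array 2, as given below.

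**Figure D2:**
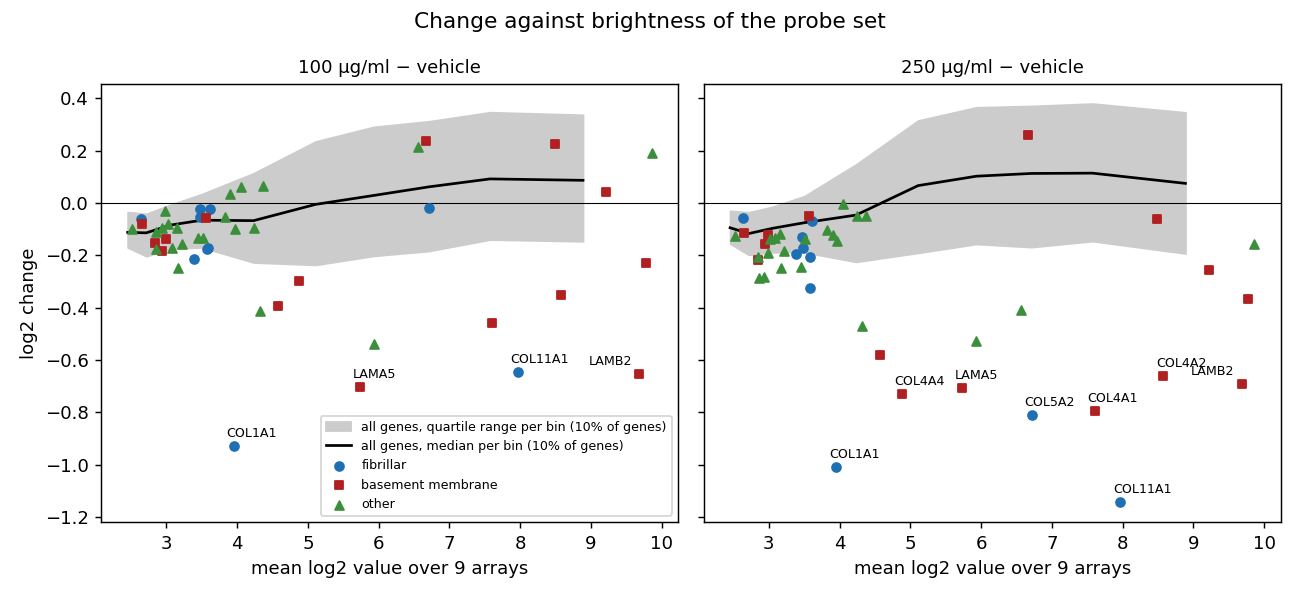
Log2 change from vehicle at 100 µg/ml (left) and 250 µg/ml (right) against the mean log2 value over the 9 arrays, with a point for each of the 47 chains; the line and grey band are the median and the quartile range of all genes in bins of brightness. At 250 µg/ml the 14 bright chains have a median of −0.59 where bright genes have one of 0.09, and most dim chains lie near the band.

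One vehicle array stood apart by high values for this group of genes. On vehicle array 2, COL1A1, COL4A1, COL4A5, COL4A2 and COL11A1 lay more than 1 log2 unit above both other vehicle arrays, as did 1.25% of all genes (178). No chain lay so far above its group on any of the other 8 arrays. Gaps below the group were counted at 0.5 log2 units, and 1 chain had one on vehicle array 3. That was LAMA5, at 5.30 against 6.59 and 6.72 on the other vehicle arrays. On the third array at 100 µg/ml 1 chain had such a gap, and on that at 250 µg/ml 2 had. Without vehicle array 2 the bright chains had a median change of −0.0019 at 100 µg/ml, with 7 of 14 below 0, and of −0.35 at 250 µg/ml, with 13 of 14 below 0. The 47 chains together then had a median of −0.12 at 100 µg/ml, with 36 below 0, and of −0.20 at 250 µg/ml, with 45 below 0.

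**Figure D3:**
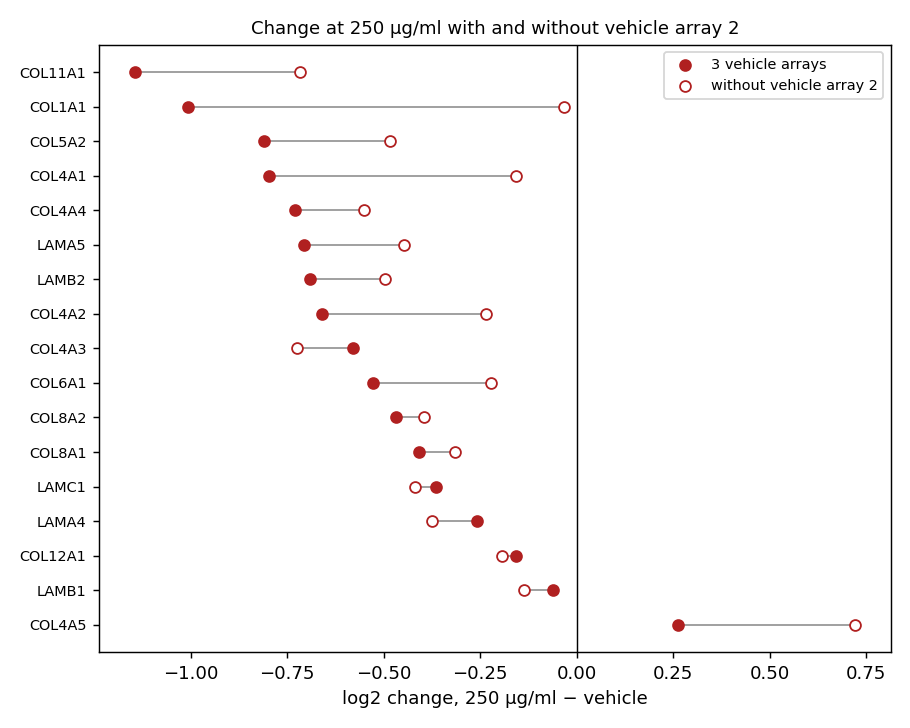
Log2 change at 250 µg/ml of 17 chains with all 3 vehicle arrays (filled) and without vehicle array 2 (open). The change of COL1A1 moves to −0.03 and that of COL4A1 to −0.16, whereas COL4A3 and COL8A2 stay below −0.39.

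Among the fibrillar chains, COL11A1, a chain of type XI collagen, which limits fibril diameter, had the largest change at 250 µg/ml. It read 8.22, 9.41 and 8.05 in vehicle, 7.96, 7.69 and 8.11 at 100 µg/ml and 7.66, 7.06 and 7.53 at 250 µg/ml. All 3 arrays at 250 µg/ml lay under every array of the other groups. The change was −0.64 ± 0.34 (SE, n = 3 each) at 100 µg/ml, with a limma adjusted p of 0.419. It was −1.14 ± 0.34 at 250 µg/ml, or 2.21-fold lower than vehicle (limma adjusted p = 0.161), and without vehicle array 2 it was −0.22 at 100 µg/ml and −0.72 at 250 µg/ml.

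COL5A2, a chain of type V collagen, which starts and limits fibril growth, read 6.57, 7.65 and 6.76 in vehicle, 6.81, 7.19 and 6.91 at 100 µg/ml and 6.37, 6.44 and 5.74 at 250 µg/ml. The 100 µg/ml arrays lay within the vehicle range, while the 250 µg/ml arrays lay under both other groups. Its change from vehicle was −0.02 ± 0.30 at 100 µg/ml (limma adjusted p = 0.983) and −0.81 ± 0.30 at 250 µg/ml (limma adjusted p = 0.229; −0.48 without vehicle array 2). COL11A2, another chain of type XI collagen, read 3.55, 3.33 and 3.38 at 250 µg/ml against 3.85, 3.72 and 3.67 in vehicle, a change of −0.33 ± 0.13 (limma adjusted p = 0.260) on a dim probe set.

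COL1A1, the main chain of type I collagen, rested on a single array. It read 3.69, 6.55 and 3.56 in vehicle, 3.74, 3.52 and 3.75 at 100 µg/ml and 3.59, 3.50 and 3.68 at 250 µg/ml. The 8 arrays other than vehicle array 2 were all near the same low value. Counting COL1A1 itself, 5 genes had a gap on that array as large as its 2.86. The change was −0.93 ± 0.68 at 100 µg/ml (limma adjusted p = 0.547; 0.05 without that array) and −1.01 ± 0.68 at 250 µg/ml (limma adjusted p = 0.484; −0.03 without it). Its partner COL1A2 read 3.45 on the same array, between its other vehicle values of 3.70 and 3.43, and had a change of −0.13 ± 0.15 at 250 µg/ml. COL3A1, of type III collagen, had a change of −0.17 ± 0.15 and COL5A1, of type V, one of −0.20 ± 0.13 at 250 µg/ml, both on dim probe sets.

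The type IV chains form 3 kinds of network molecule, of which that of COL4A1 and COL4A2 is found in nearly every basement membrane. COL4A1 read 7.26, 9.30 and 7.51 in vehicle, 7.46, 7.73 and 7.49 at 100 µg/ml and 7.28, 7.29 and 7.11 at 250 µg/ml. COL4A2 read 8.47, 9.76 and 8.50 in vehicle, 8.40, 8.58 and 8.69 at 100 µg/ml and 8.09, 8.26 and 8.39 at 250 µg/ml. Both were highest on vehicle array 2, and for both the 250 µg/ml arrays lay under all 100 µg/ml arrays.

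The change of COL4A1 was −0.46 ± 0.46 at 100 µg/ml (limma adjusted p = 0.668; 0.18 without vehicle array 2) and −0.80 ± 0.46 at 250 µg/ml (limma adjusted p = 0.412; −0.16 without it). That of COL4A2 was −0.35 ± 0.31 at 100 µg/ml (limma adjusted p = 0.626; 0.07 without it) and −0.66 ± 0.31 at 250 µg/ml (limma adjusted p = 0.335; −0.23 without it). Over the 9 arrays the values of this head-to-head pair had a Pearson correlation of 0.95. The high values on vehicle array 2 are shared by both, and the correlation is given as a description.

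COL4A3 and COL4A4, which join COL4A5 in the network of the glomerular basement membrane and of some membranes of the eye, differed less between vehicle arrays. COL4A4 read 4.99, 5.58 and 5.08 in vehicle, 4.86, 4.84 and 5.06 at 100 µg/ml and 4.61, 4.43 and 4.42 at 250 µg/ml. Every 250 µg/ml array lay under every array of the other groups. At 100 µg/ml the change was −0.30 ± 0.16 (limma adjusted p = 0.431; −0.12 without vehicle array 2). The change of −0.73 ± 0.16 at 250 µg/ml, 1.66-fold lower than vehicle, had the smallest adjusted p of the 47 chains in that comparison, 0.0808 by limma, and was −0.55 without vehicle array 2.

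COL4A3 read 5.04, 4.61 and 5.04 in vehicle, 4.37, 4.64 and 4.5 at 100 µg/ml and 4.33, 4.6 and 4.02 at 250 µg/ml. Here vehicle array 2 was the lowest of its group, just above the highest 250 µg/ml array. The change was −0.39 ± 0.18 at 100 µg/ml (limma adjusted p = 0.359) and −0.58 ± 0.18 at 250 µg/ml (limma adjusted p = 0.173; −0.72 without vehicle array 2). COL4A3 and COL4A4 had a correlation of 0.49 over the 9 arrays.

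COL4A5 was the one chain with a change above 0 at 250 µg/ml. It read 5.94, 7.42 and 6.15 in vehicle, 6.55, 6.75 and 6.92 at 100 µg/ml and 6.63, 6.59 and 7.08 at 250 µg/ml. All 6 treated arrays lay above vehicle arrays 1 and 3 and under vehicle array 2. Its change was 0.24 ± 0.35 at 100 µg/ml (limma adjusted p = 0.789) and 0.26 ± 0.35 at 250 µg/ml (limma adjusted p = 0.741), where it was 0.72 without vehicle array 2 and −0.02 without vehicle array 1. COL4A6, its neighbour on a dim probe set, had a change of −0.12 ± 0.11 at 250 µg/ml.

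**Figure D4:**
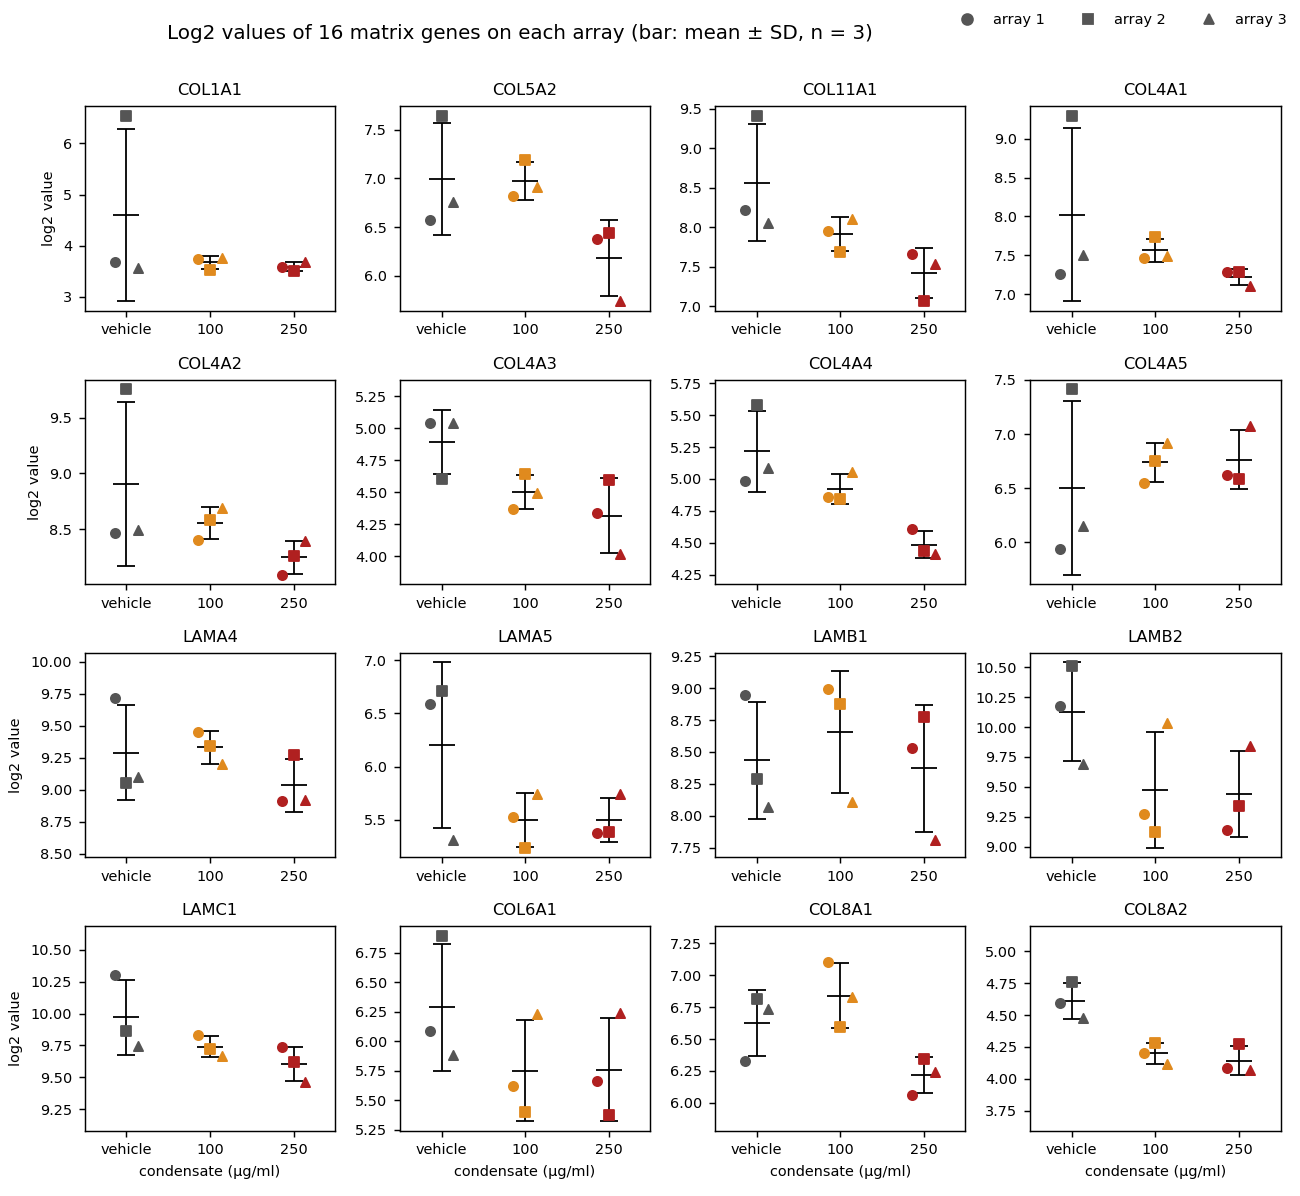
Log2 value of 16 chains on each array in vehicle, 100 µg/ml and 250 µg/ml; circles, squares and triangles are arrays 1, 2 and 3 of a group and bars are mean ± SD (n = 3). The square of vehicle stands far above the other points for COL1A1, COL4A1 and COL4A2, and the 250 µg/ml points of COL4A4 and COL5A2 lie under all others.

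Laminins are trimers of an alpha, a beta and a gamma chain. LAMC1, the gamma chain shared by most of them, read 10.30, 9.86 and 9.74 in vehicle, 9.83, 9.72 and 9.67 at 100 µg/ml and 9.73, 9.62 and 9.46 at 250 µg/ml. The 250 µg/ml arrays lay just under the lowest vehicle array. The change was −0.23 ± 0.16 at 100 µg/ml (limma adjusted p = 0.518) and −0.37 ± 0.16 at 250 µg/ml (limma adjusted p = 0.290; −0.20 without vehicle array 1).

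LAMB2, the beta chain of mature basement membranes including those of the retina, read 10.18, 10.51 and 9.69 in vehicle, 9.27, 9.12 and 10.03 at 100 µg/ml and 9.14, 9.34 and 9.84 at 250 µg/ml. Arrays 1 and 2 of both doses lay under vehicle, and array 3 of both doses lay within the vehicle range. The change was −0.65 ± 0.30 at 100 µg/ml (limma adjusted p = 0.364) and −0.69 ± 0.30 at 250 µg/ml (limma adjusted p = 0.300). LAMB1, another beta chain, read 8.53, 8.77 and 7.81 at 250 µg/ml against 8.95, 8.29 and 8.07 in vehicle, with a change of −0.06 ± 0.34 (limma adjusted p = 0.942); leaving out the third array at 250 µg/ml gave 0.22.

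LAMA5, the alpha chain of the main epithelial laminins, read 6.59, 6.72 and 5.30 in vehicle, 5.52, 5.23 and 5.74 at 100 µg/ml and 5.37, 5.38 and 5.74 at 250 µg/ml. Vehicle array 3 lay with the treated arrays, and the other vehicle arrays lay above all of them. The change was −0.70 ± 0.35 at 100 µg/ml (limma adjusted p = 0.391) and −0.71 ± 0.35 at 250 µg/ml (limma adjusted p = 0.345). Without vehicle array 3 it was −1.15 at 250 µg/ml, with a limma adjusted p of 0.0309, and without vehicle array 2 it was −0.45. LAMA4, an alpha chain of vessel and mesenchymal basement membranes, had a change of −0.26 ± 0.19 at 250 µg/ml (limma adjusted p = 0.531), and LAMA1 and LAMA2 were dim, with changes of −0.15 ± 0.11 and −0.11 ± 0.10.

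Of the other collagens, COL8A2 had the smallest adjusted p. It encodes a chain of type VIII collagen, a short-chain network collagen of Descemet's membrane. It read 4.59, 4.76 and 4.48 in vehicle, 4.21, 4.28 and 4.11 at 100 µg/ml and 4.08, 4.27 and 4.07 at 250 µg/ml. All 6 treated arrays lay under all vehicle arrays. The change was −0.41 ± 0.11 at 100 µg/ml (limma adjusted p = 0.210), −0.47 ± 0.11 at 250 µg/ml (limma adjusted p = 0.0949) and −0.44 ± 0.10 for the mean of both doses (limma adjusted p = 0.0701). Its probe set was dim. Every treated array lay under every vehicle array for 7.10% of all genes and for 10.8% of dim genes.

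COL8A1, the other type VIII chain, followed another course. It read 6.33, 6.81 and 6.74 in vehicle, 7.10, 6.59 and 6.83 at 100 µg/ml and 6.06, 6.35 and 6.24 at 250 µg/ml. The 100 µg/ml arrays overlapped vehicle, and the 250 µg/ml arrays lay under all 100 µg/ml arrays but not under all vehicle arrays. The change from vehicle was 0.21 ± 0.18 at 100 µg/ml (limma adjusted p = 0.592) and −0.41 ± 0.18 at 250 µg/ml (limma adjusted p = 0.293).

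COL6A1, a chain of the beaded microfibrils of type VI collagen, read 6.08, 6.90 and 5.88 in vehicle, 5.62, 5.40 and 6.23 at 100 µg/ml and 5.66, 5.38 and 6.24 at 250 µg/ml. Array 3 of each dose lay within the vehicle range and the others lay under it. The change was −0.53 ± 0.33 at 250 µg/ml (limma adjusted p = 0.457; −0.22 without vehicle array 2). COL12A1, a collagen that decorates fibril surfaces, overlapped vehicle throughout, with a change of −0.16 ± 0.26 at 250 µg/ml (limma adjusted p = 0.797). The other named chains were dim, as was COL8A2. At 250 µg/ml COL6A2 had a change of −0.15 ± 0.09 and COL6A3 one of −0.14 ± 0.12, both partners of COL6A1. COL15A1, of the vessel and muscle basement membrane zone, had −0.13 ± 0.11, COL10A1, of hypertrophic cartilage, −0.29 ± 0.16, and COL25A1, a transmembrane collagen, −0.25 ± 0.13. The remaining 13 other chains lay between −0.28 and −0.0018.

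**Figure D5:**
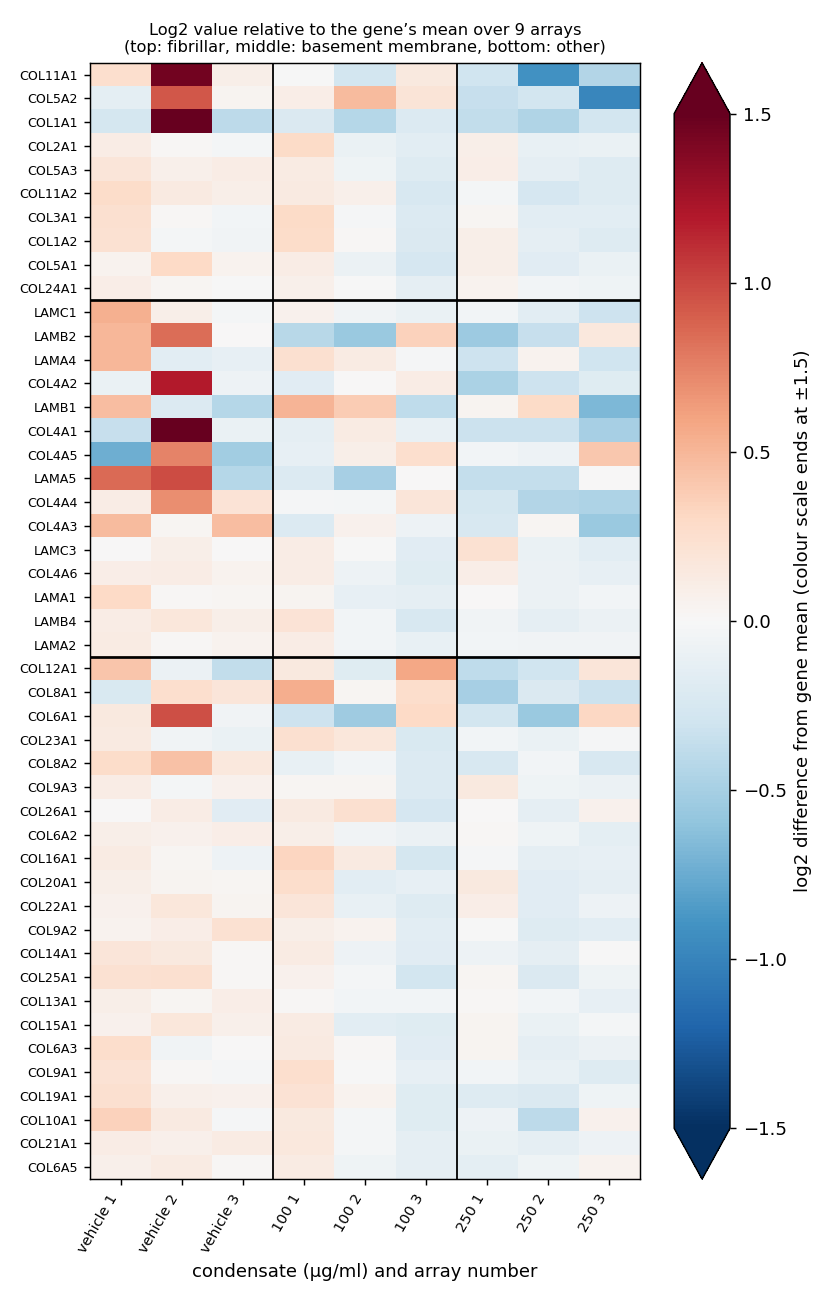
Log2 value of the 47 chains on each of the 9 arrays as the difference from the chain's own mean (red higher, blue lower, colours end at ±1.5), with fibrillar, basement membrane and other chains from top to bottom. The strongest red cells are those of COL1A1, COL4A1, COL11A1 and COL4A2 on vehicle array 2.

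Between the doses, no gene of the array passed at 250 against 100 µg/ml (0.00% by limma). Of the chains, 0 passed and 3 had an unadjusted p under 0.05, all lower at 250 µg/ml, where 0.859% of all genes were. They were COL8A1, with a change of −0.62 ± 0.18, COL4A4, with −0.43 ± 0.16, and COL5A2, with −0.79 ± 0.30 (limma adjusted p = 1.00 each). The fit behind these values did not pair arrays of the same number. Over all alternatives run, the lowest limma adjusted p was 0.219, 0.183 and 0.148 in that order. All 3 arrays at 250 µg/ml lay under all 3 at 100 µg/ml for 6 of 47 chains, where 2.86% of all genes did; beside these 3 they were COL11A1, COL4A1 and COL4A2. No chain had the opposite order, which 3.32% of all genes had. The change was below 0 for 38 of 47 chains, where it was for 45.6% of all genes. The median of the 47 chains was −0.06 and that of all genes 0.01. The changes, medians and array orders of this comparison do not use the vehicle arrays. Its SEs and p-values do, because the fit takes the spread of each gene from all groups, vehicle included.

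By Pearson correlation over the 9 arrays, the genes most like COL4A4 were GPR37 (0.97), IVNS1ABP (0.97) and EFNB2 (0.95). Those most like COL8A2 were SELENBP1 (0.97), ANKZF1 (0.97) and TBX21 (0.96). Each list holds the 3 highest correlations among all genes measured, over only 9 arrays in 3 groups. A shared difference between groups raises such a correlation, so the lists are given as a description.

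Of 72 genes that modify, process, cross-link, accompany or bind these chains, 61 were measured. By limma 0 rose and 0 fell at 100 µg/ml, where 6 of 61 were higher and 7 lower at an unadjusted p under 0.05, against 7.0% and 7.65% of all genes. At 250 µg/ml 0 rose and 0 fell, and 6 of 61 were higher and 9 lower at that level, against 8.74% and 7.90% of all genes. For the mean of both doses 0.901% of all genes passed in either direction, with 87 higher and 41 lower. At an unadjusted p under 0.05, 7 of the 61 genes were higher and 13 lower for that mean, where 10.6% of all genes were lower. By adjusted p, 1 of the 61 rose and 0 fell. That gene was FKBP14, a prolyl isomerase of the endoplasmic reticulum that acts on collagen. It read 4.83, 5.64 and 5.64 in vehicle, 6.50, 6.61 and 6.59 at 100 µg/ml and 6.61, 7.38 and 6.70 at 250 µg/ml, all treated arrays above all vehicle arrays. Of all genes, 6.41% lay wholly above vehicle at 100 µg/ml and 8.61% at 250 µg/ml. The change of FKBP14 was 1.36 ± 0.23 for the mean of both doses (limma adjusted p = 0.0395). Leaving out single arrays gave adjusted p-values of 0.0329 to 0.107, under the threshold only without vehicle array 3 or without the third array at 250 µg/ml. At 250 µg/ml alone the change was 1.52 ± 0.26 (limma adjusted p = 0.0515), which passed under 6 of 17 alternatives, with adjusted p-values of 0.0319 to 0.188 over all of them.

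The medians at 250 µg/ml differed in sign between the steps, each a group of few genes. The 10 hydroxylation genes had a median of 0.20 and the 7 genes of glycosylation, chaperoning and export one of 0.30, whereas the 4 cross-linking genes had −0.33 and the 12 fibril and matrix partners −0.17, with all 12 below 0. The 8 propeptide-removal genes had a median of 0.02, the 8 basement membrane partners −0.16 and the 12 receptors −0.16. These are described beside the all-gene median of −0.04.

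Inside the cell, SEC24D, a coat protein of the vesicles that export procollagen, had 7.97, 8.0 and 7.99 at 250 µg/ml against 7.37, 7.26 and 7.28 in vehicle, a change of 0.69 ± 0.12 (limma adjusted p = 0.0520). PLOD3, a lysyl hydroxylase that also glycosylates collagen, had a change of 0.42 ± 0.10 (limma adjusted p = 0.0866), and P4HA3, a prolyl hydroxylase subunit, one of 0.52 ± 0.28 (limma adjusted p = 0.380). For SEC24D and PLOD3 all treated arrays lay above all vehicle arrays at 250 µg/ml, a pattern of 8.61% of all genes.

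Outside the cell, TLL1, a protease that removes procollagen propeptides, had 4.53, 4.70 and 5.25 at 250 µg/ml against 6.75, 7.03 and 6.89 in vehicle, a change of −2.06 ± 0.35 (limma adjusted p = 0.0504). BMP1, of the same family, had −0.73 ± 0.34 (0.327), and read 6.78, 7.75 and 6.51 in vehicle, highest on array 2. The lysyl oxidases LOXL2 and LOXL1, which cross-link fibrils, had −0.60 ± 0.19 (0.173) and −0.48 ± 0.23 (0.338). The fibrillins FBN2 and FBN1, of elastic microfibrils, had −1.08 ± 0.29 (0.133) and −0.62 ± 0.20 (0.186).

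Among basement membrane partners, FBLN1, a laminin-binding fibulin, had a change of −0.45 ± 0.20 at 250 µg/ml (limma adjusted p = 0.306), and NID1, which links laminin to type IV collagen, one of 0.35 ± 0.27 (limma adjusted p = 0.537). FBLN1 read 3.85, 4.51 and 3.73 in vehicle, highest on array 2. NID1 read 4.99, 4.96 and 3.88 in vehicle and 4.96, 4.92 and 5.02 at 250 µg/ml, so its change rested on vehicle array 3. Of the receptors, ITGB4, the beta chain of the laminin receptor of hemidesmosomes, had 5.37, 5.11 and 5.87 at 250 µg/ml against 7.55, 7.74 and 6.35 in vehicle, a change of −1.76 ± 0.38 (limma adjusted p = 0.0763). ITGA2, the alpha chain of a collagen receptor, had 4.57, 4.87 and 3.55 at 250 µg/ml against 3.37, 2.91 and 3.27 in vehicle, a change of 1.14 ± 0.45 (limma adjusted p = 0.255). For both integrins the third array at 250 µg/ml was the one nearest to vehicle.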

How the data were processed

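Total RNA of ARPE-19 cells was measured on 9 whole-transcript arrays, 3 per group. The deposited values are log2 intensities that the authors made by RMA in Partek on hg18, per the submitters' processing notes; of versions, settings and any filter nothing is given in the sources used here. Of 17629 probe sets, 14378 name 1 gene, 2405 several and 846 none in the platform annotation. Symbols were updated through RefSeq gene numbers (28 probe sets had none there). For the 169 genes with several probe sets the one with the highest mean was kept, leaving 14207 genes; no chain had more than 1.

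All 9 arrays were fitted with a mean per group in limma 3.58.1 (R 4.3.3, lmFit and eBayes), and p-values were adjusted over all genes by Benjamini-Hochberg at 0.05. The comparisons were each dose and the mean of both doses against vehicle, and 250 against 100 µg/ml. The fit was tested on simulated data with known changes. Arrays of the same number at both doses had deviations from their group means that correlated at 0.44 to 0.68, so the numbers were taken to pair the doses, from the data and not the labels; with vehicle the range was −0.14 to 0.26. In 250 against 100 µg/ml the number as a replicate block gave 0 calls, as without it. Every SE and p-value is from the fit without the block unless the block is named. That fit treats arrays of the same number as independent, also in the mean of both doses.

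Chains named with values were the 4 with the largest change per class at each dose and a list of well-known chains; processing and receptor genes were those past the threshold and the 2 largest changes per role at 250 µg/ml. Likeness was looked up for the 2 chains with the smallest p at 250 µg/ml. The members and lists were chosen with earlier results of these data known. The number of arrays limits the precision. Alternatives covered scaling, dim genes, probe set choice, array weights, arrays in the fit, the block and leaving out arrays; the split by brightness and the recounts of chains without overlap were added after the data had been seen.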

Additional observations from a re-analysis of the deposited data

How the results depend on the processing

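With 3 arrays a group, single arrays moved the counts over all genes and the values of single chains, such as COL1A1 (−1.53 to −0.03 at 250 µg/ml). The median change of the 47 chains stayed below 0 under every alternative run, at −0.19 to −0.05 for 100 µg/ml, −0.23 to −0.12 for 250 µg/ml, −0.20 to −0.08 for the mean of both doses and −0.14 to −0.02 for 250 against 100 µg/ml. At 100 µg/ml the all-gene median was below 0 too, at −0.05 with all arrays. Without the third array at that dose the chains had −0.054 and all genes −0.037, with 31 of 47 chains below 0. Chains called numbered 0 under every alternative except 2. Leaving out each array in turn gave 0 to 1 at 250 µg/ml and 0 to 1 for the mean of both doses, the 1 being LAMA5 without vehicle array 3. With the array number as a replicate block, the mean of both doses had 1, COL8A2 (limma adjusted p = 0.0482). The dim chains are close to the array's floor, which limits what their small changes show.

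For 100 µg/ml, 9 genes were called; the count was 4 after quantile normalization (3 higher and 1 lower, against 8 and 1), 73 with array weights, 1 with only the 6 arrays compared, 3 with the replicate block, 47 without the arrays numbered 3 of both doses, and 1 to 57 with single arrays left out. For 250 µg/ml, 78 were called, 55 higher and 23 lower; the count was 153 with each array centred on its median (82 higher, 71 lower), 129 after quantile normalization (65 higher, 64 lower), 130 with dim genes left out, 234 with array weights, 1 with only the 6 arrays compared, 122 with the replicate block, 167 without the arrays numbered 3, and 4 to 296 with single arrays left out. For the mean of both doses, 128 were called, 87 higher and 41 lower; the count was 240 with centring (132 higher, 108 lower), 188 after quantile normalization (96 higher, 92 lower), 206 with dim genes left out, 260 with array weights, 243 with the replicate block, 462 without the arrays numbered 3, and 9 to 434 with single arrays left out. Fewer genes or arrays enter some of these fits; otherwise the cause was not tested. Between each dose and vehicle, 2 of the 6 arrays correlated best with the array of their own number.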

Other observations

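Probe sets that name a chain together with another gene were kept out of the counts, and none passed at either dose by limma. The probe set of COL18A1, the source of endostatin, and SLC19A1, a folate carrier, read 6.90, 8.06 and 7.28 in vehicle, 6.53, 6.28 and 7.59 at 100 µg/ml and 6.41, 6.27 and 7.36 at 250 µg/ml. Array 3 of both doses lay within the vehicle range and the other treated arrays lay under it, with a change of −0.73 ± 0.44 at 250 µg/ml (limma adjusted p = 0.437). The probe set of LAMB3, a chain of the laminin of epithelial anchoring, and MIR4260 read 5.09, 5.39 and 4.74 at 250 µg/ml against 5.76, 5.5 and 5.57 in vehicle, a change of −0.53 ± 0.20 (limma adjusted p = 0.250). Those of COL7A1 with MIR711 and of COL27A1 with MIR455 had changes of −0.20 ± 0.11 and −0.18 ± 0.11, and a further probe set naming PNLIP and COL1A2 had −0.23 ± 0.09. Which of the named genes a probe set reads was not tested.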
